A study of Mus musculus with 14 samples.

Results

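Svep1, the angiopoietins Angpt1 and Angpt2, the Tie receptors Tek and Tie1, the phosphatase Ptprb and the receptor Pear1 were described in RNA from the dissected epicardium and subepicardium of mouse hearts at E16.5. The members were the rows of the deposited expression table that carry these gene names, and all 7 of them were found among 15894 listed genes. Expression was compared between the ventral and the dorsal side of the heart and between males and females, which are the comparisons that the study was designed for. There were 3 female ventral and 3 female dorsal libraries (pools 1 to 3), 4 male ventral libraries (pools 4 to 7) and 3 male dorsal libraries (pools 4 to 6), each made from a pool of 2 hearts.

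All groups were labelled with the genotype Tbx18Cre and with no treatment, and the paper describes the hearts as wild type. Cre from the Tbx18 locus is active in the epicardium and in cells derived from it. Sex could not be told apart from the pool numbering, since pools 1 to 3 were female and pools 4 to 7 were male. The labels of 1 more male library, of pool 7, disagree: title and source name say dorsal, and the tissue field says ventral. It was kept out of every comparison and its values are given separately. The labels state that hearts came from several litters, but not which litter went into which pool. Pools are named by the number in the labels, and whether ventral and dorsal libraries of the same number share hearts is not given in the sources used here.

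Angiopoietins are secreted ligands of TEK, also known as TIE2, a receptor tyrosine kinase of endothelial cells. ANGPT1, made largely by mural and mesenchymal cells, activates the receptor, whereas ANGPT2, made largely by endothelial cells, activates or blocks it depending on context. TIE1 is a related receptor that forms complexes with TEK, and PTPRB (VE-PTP) is an endothelial phosphatase that removes phosphate from TEK. SVEP1 is a large secreted matrix protein that binds the integrin of ITGA9 and ITGB1, has been described as a ligand of TIE1 and of PEAR1, and is needed for lymphatic vessels to form properly. PEAR1 is a receptor with EGF-like repeats found on platelets and endothelial cells.

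The genes lie at separate loci of GRCm38, given here with the positions of GENCODE M21. Svep1 (ENSMUSG00000028369) spans 58042442 to 58206859 on the minus strand of chromosome 4, and its merged exons cover 16.12 kb. Tek (ENSMUSG00000006386) spans 94739289 to 94874976 on the plus strand of chromosome 4 (4.712 kb of exons), and Tie1 (ENSMUSG00000033191) spans 118471191 to 118490061 on its minus strand (4.917 kb). Angpt1 (ENSMUSG00000022309) spans 42424723 to 42676977 on the minus strand of chromosome 15 (5.205 kb), and Angpt2 (ENSMUSG00000031465) spans 18690263 to 18741562 on the minus strand of chromosome 8 (3.69 kb). Ptprb (ENSMUSG00000020154) spans 116275523 to 116389535 on the plus strand of chromosome 10 (13.33 kb), and Pear1 (ENSMUSG00000028073) spans 87747890 to 87824306 on the minus strand of chromosome 3 (6.781 kb). Of the 60-base windows in their transcripts, 13.9% for Svep1 (shared with Gm15079 and Gm26889), 13.2% for Angpt1 (shared with Gm17473) and 3.45% for Pear1 (shared with Lrrc71) also occurred in another gene on either strand, so reads from these stretches could have been assigned to either gene. No window was shared for Angpt2, Tek, Tie1 or Ptprb.

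RefSeq (GRCm38.p6) gave a promoter for 4 of the 7 members, namely Svep1, Pear1, Tek and Tie1. The 250 bases before the RefSeq start of Svep1 and Pear1 are shown because these are the members that differed between regions. Capitals mark the letters GGAATG, which the TEAD family of transcription factors is known to bind, searched on both strands. The Svep1 stretch lies at chr4:58206597-58206846 and the Pear1 stretch at chr3:87768954-87769203, both read on the minus strand. Both lie inside the GENCODE spans given above. The Pear1 stretch lies far inside, since the upstream end of that span is at 87824306, so it does not precede the whole gene.
Svep1: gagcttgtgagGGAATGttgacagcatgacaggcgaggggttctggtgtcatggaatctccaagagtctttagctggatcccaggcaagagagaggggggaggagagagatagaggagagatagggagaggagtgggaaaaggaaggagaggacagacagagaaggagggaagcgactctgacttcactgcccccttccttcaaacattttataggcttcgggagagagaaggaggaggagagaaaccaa
Pear1: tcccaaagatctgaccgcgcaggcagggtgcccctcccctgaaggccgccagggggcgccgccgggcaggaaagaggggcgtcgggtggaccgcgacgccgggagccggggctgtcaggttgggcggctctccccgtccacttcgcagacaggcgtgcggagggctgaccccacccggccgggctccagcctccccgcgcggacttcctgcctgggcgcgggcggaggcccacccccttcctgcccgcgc
All 250 bases of the Svep1 stretch lie in the first exon of a longer non-coding transcript in GENCODE, and 13 bases of the Pear1 stretch lie in an exon. Of the Tie1 stretch, which is not shown, 212 bases lie in an exon of a coding transcript. The TEAD letters occurred 1 time before Svep1 and not in the other 3 promoters, and 12.6% of 32851 RefSeq promoters of this length hold them. The ETS letters CCGGAA, held by 12% of promoters, and the GATA letters AGATAA, held by 9.99%, occurred in none of the 4. These motifs do not overlap each other in the printed stretches. The Pear1 stretch held 76.8% G and C and the Svep1 stretch 52.4%, against a median of 52.4% and an upper quartile of 61.2% over all promoters.

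Expression is given as normalized CPM, that is, counts of a gene scaled to a common size of all libraries, in counts per 1000000. The 13 libraries of settled region held 13.9 to 24.7 M reads on listed genes (M for 1000000), so that 3 reads, taken as the floor of detection, corresponded to 0.120 to 0.217 normalized CPM. No member came near the floor in any library. A list of 10 epicardial markers (Wt1, Tbx18, Upk3b, Upk1b, Msln, Krt8, Krt18, Krt19, Aldh1a2 and Lrrn4) had no gene at the floor in any library. In the female pools its summed level was 1809 to 2953 ventrally and 289 to 659 dorsally, and in the male pools it was 2072 to 6365 ventrally and 1677 to 4452 dorsally. A list of 10 blood endothelial markers (Pecam1, Cdh5, Kdr, Emcn, Flt1, Egfl7, Erg, Esam, Cldn5 and Robo4) summed to 462 to 829 in female ventral, 590 to 756 in female dorsal and 653 to 896 in male dorsal pools.

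Male ventral pool 7 stood apart from the other libraries in the vascular members. All 10 blood endothelial markers had their lowest value of the 13 libraries there, and their summed level was 174, against 714 in the highest male ventral pool. Other cell types were low there too. Of the mural markers 4 of 6 and of the lymphatic endothelial markers 2 of 6 had their lowest value in that pool. The cardiomyocyte list summed to 13085, against 18149 to 27387 in male ventral pools 4, 5 and 6. Tie1 was read at 2.70 normalized CPM (63 reads), 15.5-fold below the median of male ventral pools 4, 5 and 6. Ptprb was 8.50-fold and Angpt2 3.98-fold below that median. Tek did not move with them, since at 119 normalized CPM it was 1.06 times the median of the other male ventral pools and the third highest of the 13 libraries. Svep1 was 1.99 times that median, beside a median ratio of 2.45 over the epicardial markers. Values without this pool are given below beside the results that it moved.

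**Figure D1:**
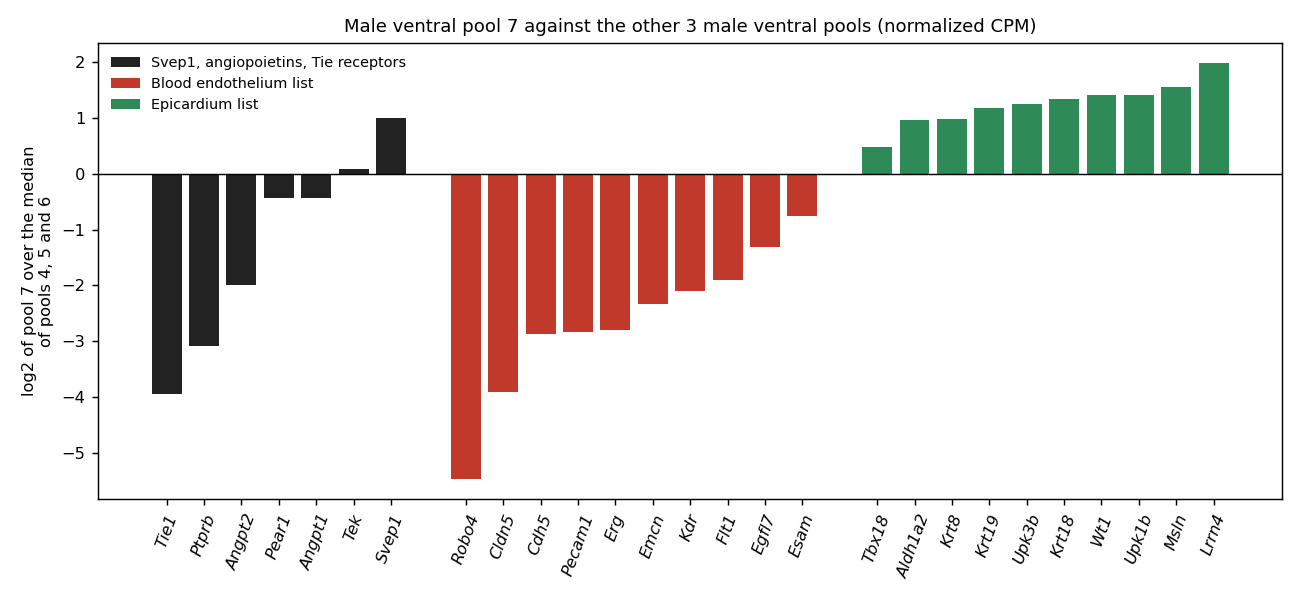
Level in male ventral pool 7 over the median of male ventral pools 4, 5 and 6, as log2 of the ratio of normalized CPM (bars; 0 means no difference), for the 7 genes and for the blood endothelial and epicardial marker lists. Tie1 and Ptprb lie among the blood endothelial markers, all of which are below 0, whereas Tek lies at the level of the other pools and all epicardial markers are above 0.

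The plot of levels by library shows how differently the members varied. Svep1 ranged from 2.66 to 48.1 normalized CPM over the 13 libraries (18.1-fold), Tie1 over 22.1-fold, Ptprb over 12.1-fold, Angpt1 over 10.1-fold and Angpt2 over 9.27-fold. Pear1 varied over 3.75-fold and Tek over 3.05-fold. Part of this order rested on male ventral pool 7, since without it Tie1 varied over 4.13-fold, Ptprb over 2.22-fold and Angpt1 over 8.40-fold, while the ranges of the other 4 members stayed the same.

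**Figure D2:**
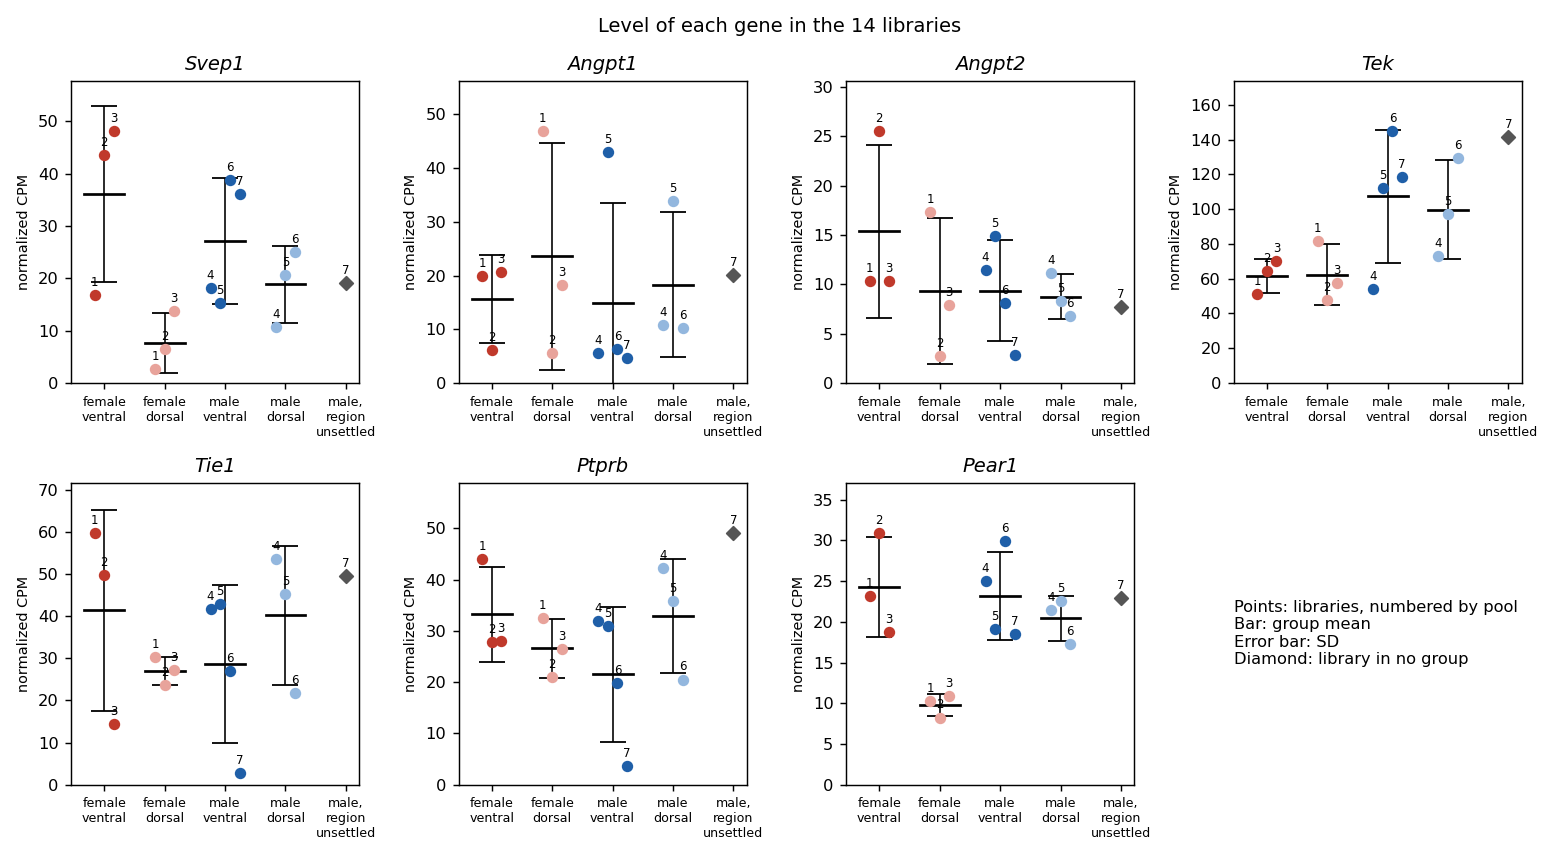
Normalized CPM of each gene in the 14 libraries (points, numbered by pool), with the group mean (bar) and SD (error bar); the diamond is the male library that belongs to no group. Only Svep1 and Pear1 separate female ventral from female dorsal pools, and Tek is higher in most male pools than in the female ones.

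In the female pools, Svep1 and Pear1 rose ventrally and none of the other 5 members passed the test. That is 2 of 7 members, of which 2 were higher ventrally and 0 dorsally, while 27.8% of all 14411 genes tested were called in this comparison (14.5% higher ventrally and 13.3% higher dorsally). The share among the members is therefore close to that of all genes. The ventral and dorsal groups did not overlap for the same 2 members, against 44.8% of all genes. The median change of the members was 0.38 on the log2 scale and that of all genes 0.011.

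In the male pools, 0 of 7 members were called, at an adjusted p or at an unadjusted p under 0.05, with limma or with edgeR. Here 0% of 14917 genes were called, although 2083 of them had an unadjusted p under 0.05 with limma. No member separated the male ventral from the male dorsal pools, against 14% of all genes. With both sexes together and sex as a covariate, 2 of 7 members were called, both of them higher ventrally, against 18.9% of 15772 genes (9.8% higher ventrally and 9.06% dorsally). The edgeR count test called 1 of them, Pear1, and 2480 of the 15772 genes.

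Svep1, the secreted matrix ligand, had the largest regional change of the members in the female pools. It was read at 16.8, 43.5 and 48.1 normalized CPM in female ventral pools 1, 2 and 3. In female dorsal pools 1, 2 and 3 it was read at 2.66, 6.40 and 13.8. Every ventral value lay above every dorsal value, and within a pool the ventral level was 6.34, 6.80 and 3.48 times the dorsal level. The means were 36.1 ± 16.9 ventrally and 7.62 ± 5.67 dorsally (SD, n = 3 each), a log2 change of 2.20 (SE 0.52, adjusted p = 0.0128 by limma). Without female ventral pool 2 the adjusted p was 0.0603, and without female ventral pool 3 it was 0.0507.

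In the males Svep1 was read at 18.1, 15.3, 38.8 and 36.1 normalized CPM in ventral pools 4, 5, 6 and 7 and at 10.6, 20.7 and 25.1 in dorsal pools 4, 5 and 6. These groups overlapped, and the ventral level was 1.71, 0.739 and 1.55 times the dorsal one in pools 4, 5 and 6. This gave a log2 change of 0.47 (SE 0.38, adjusted p = 0.587), and it was 0.30 without male ventral pool 7. The male library of unsettled region had 19.1.

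The regional change of Svep1 in males minus that in females was -1.73 on the log2 scale (SE 0.71). This difference was not called without the pairing of libraries by pool number (adjusted p = 0.252 by limma). It was called with the pool number as a replicate block (-1.90, adjusted p = 0.00976), a fit in which male ventral pool 7 has no partner. Leaving out that pool without the block gave the same -1.90 with an adjusted p of 0.220. None of the 7 members was called in this comparison in the main fit, against 2.73% of 15772 genes. The 2 members Svep1 and Pear1 had an unadjusted p under 0.05 with limma, as did 2428 of the 15772 genes. With edgeR 2 members did so, and edgeR called 0 members and 380 of the 15772 genes. Ptprb was called only with the epicardial list as a covariate, as given below. Over both sexes Svep1 had a log2 change of 1.28 (SE 0.41, adjusted p = 0.0412), and its adjusted p over the alternatives was 0.0205 to 0.884. That call was lost without any 1 of female ventral pools 2 and 3, female dorsal pools 1 and 2, male ventral pools 6 and 7 and male dorsal pool 4, with adjusted p up to 0.0995.

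Svep1 and the epicardial markers were both higher ventrally in the female pools. All 10 epicardial markers rose there, with a median log2 change of 2.36, and Svep1 with its 2.20 lay near that median. The log2 ratio of Svep1 to the mean of the epicardial list was -2.23 ± 0.43 in female ventral and -2.28 ± 0.62 in female dorsal pools (SD, n = 3 each). It was -3.08 ± 0.20 in male ventral (n = 4) and -2.90 ± 0.42 in male dorsal pools (n = 3). The ventral minus dorsal difference of this ratio, averaged over the sexes, was -0.068 (p = 0.757, exact permutation test of region labels within sex, two-sided, 700 arrangements; adjusted p = 0.947 over 9 ratios). The epicardial sums of the female ventral and dorsal pools did not overlap, so a fit with the mean of this list as a covariate could hardly tell region from list: with it the female change of Svep1 was -1.37 (adjusted p = 0.684), and 0 of 20 called genes (the 2 members, the called leading genes of each list and Foxo1) kept their call. In dissected tissue, fewer cells of a type and less RNA per cell cannot be told apart.

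**Figure D3:**
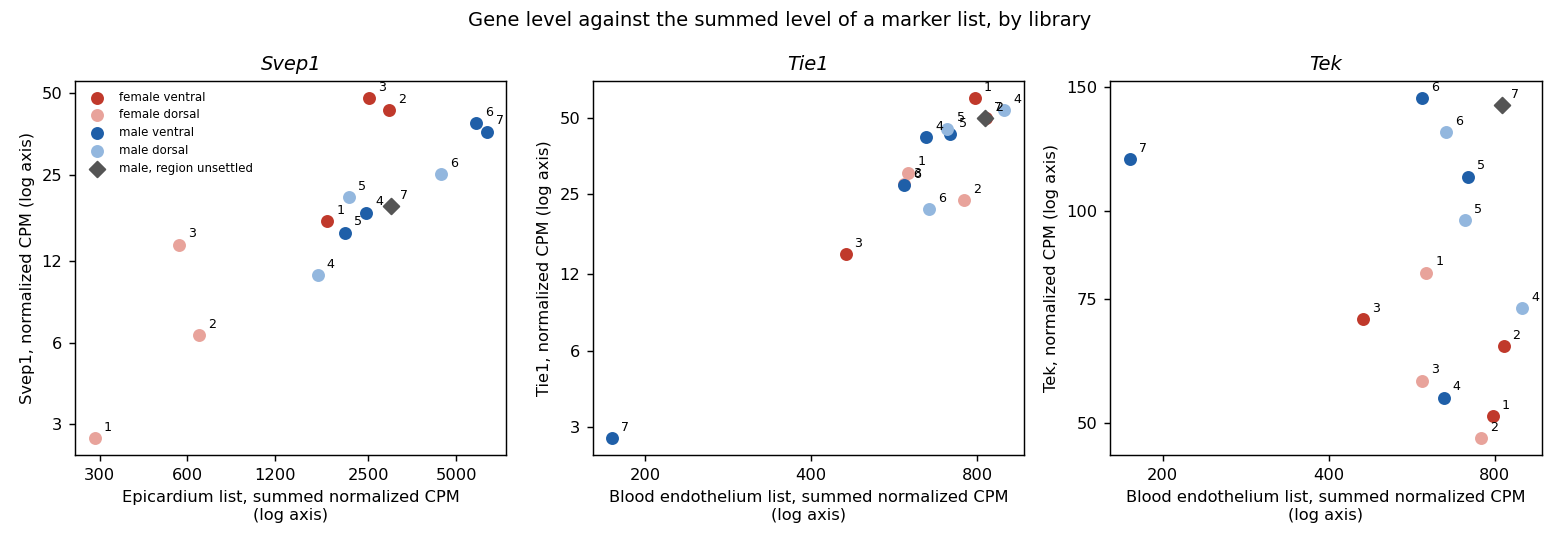
Level of Svep1 against the summed epicardial list, and of Tie1 and Tek against the summed blood endothelial list, in the 14 libraries (points, numbered by pool; all axes are logarithmic, in normalized CPM). Libraries with low epicardial sums are low in Svep1, male ventral pool 7 is lowest in both Tie1 and the endothelial sum, and Tek in that pool is among the highest.

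Neither angiopoietin was called between regions in either sex. Angpt1, the activating ligand, was read at 19.96, 6.18 and 20.6 normalized CPM in female ventral pools 1, 2 and 3 and at 46.9, 5.58 and 18.2 in the dorsal ones. In the males it was read at 5.60, 42.9, 6.28 and 4.66 in ventral pools 4, 5, 6 and 7 and at 10.8, 33.9 and 10.2 in dorsal pools 4, 5 and 6. Pool 5 was high and pool 2 was low on both sides of the heart, and 3 of 6 pools were higher ventrally. Its log2 change was -0.30 in females (SE 0.65, adjusted p = 0.765) and -0.67 in males (SE 0.69, adjusted p = 0.670). The female value turned to 0.22 without female ventral pool 2 and to 0.40 without female dorsal pool 1, and the male value was -0.38 without male ventral pool 7. The library of unsettled region had 20.2.

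Angpt2, the context-dependent ligand, was read at 10.3, 25.5 and 10.4 normalized CPM in female ventral pools 1, 2 and 3 and at 17.3, 2.75 and 7.91 in the dorsal ones. Pool 2 held the highest ventral and the lowest dorsal value, a 9.27-fold difference, and pool 1 was higher dorsally. In the males it was read at 11.4, 14.9, 8.12 and 2.87 ventrally (pools 4 to 7) and at 11.2, 8.35 and 6.76 dorsally (pools 4 to 6). It was higher ventrally in 5 of 6 pools, 3 of 3 male ones included, and the groups overlapped in both sexes. The log2 change was 0.83 in females (SE 0.55, adjusted p = 0.285) and -0.069 in males (SE 0.45, adjusted p = 0.959). The male value turned to 0.34 without male ventral pool 7, and it was also 0.34 with the replicate block, where that pool has no partner. The log2 ratio of Angpt2 to Angpt1 was 0.021 ± 1.61 in female ventral and -1.10 ± 0.29 in female dorsal pools (SD, n = 3 each). It was -0.19 ± 1.04 in male ventral (n = 4) and -0.80 ± 0.998 in male dorsal pools (n = 3), and the regional difference averaged over the sexes was 0.86 (p = 0.177, exact permutation test, adjusted p = 0.531).

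Tek, the angiopoietin receptor, was called between the sexes in the main fit and was not called between regions. That fit counted the libraries of a pool number separately, and sex could not be told apart from the pool numbering. In females it was read at 51.1, 64.2 and 70.2 normalized CPM in ventral pools 1, 2 and 3 and at 81.7, 47.5 and 57.4 in the dorsal ones. In males it was read at 54.3, 112, 145 and 119 in ventral pools 4, 5, 6 and 7 and at 72.8, 97.0 and 129 in dorsal pools 4, 5 and 6. Both libraries of pool 4 lay within the female range and the other 5 male libraries lay above it, as did the male library of unsettled region with 141. The means over both regions were 104 ± 31.8 in males (n = 7) and 62.0 ± 12.7 in females (n = 6), a log2 change of 0.69 (SE 0.21, adjusted p = 0.0441 by limma). Tek was 1 of 7 members called, against 10.9% of 15772 genes in the comparison of the sexes.

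This call lay close to the threshold. It was lost without any 1 of female ventral pools 1, 2 and 3, female dorsal pools 2 and 3, male ventral pools 5, 6 and 7 and male dorsal pools 5 and 6, with adjusted p from 0.0619 to 0.103. It was also lost when the libraries of a pool number were averaged (adjusted p = 0.110). None of the other 6 members was called between the sexes. Between regions, the log2 change of Tek was 0.015 in females (SE 0.21, adjusted p = 0.966) and 0.059 in males (SE 0.31, adjusted p = 0.948), or -0.017 without male ventral pool 7.

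Tie1, the partner receptor of TEK, was read at 59.7, 49.9 and 14.5 normalized CPM in female ventral pools 1, 2 and 3 and at 30.3, 23.6 and 27.2 in the dorsal ones. Female ventral pool 3 was the lowest of the female libraries, as it was for the sum of the blood endothelial markers, and the groups overlapped through it alone. The log2 change was 0.38 (SE 0.43, adjusted p = 0.543), and without female ventral pool 3 it was 0.99 with an adjusted p of 0.0116. In males Tie1 was read at 41.8, 42.9, 27.0 and 2.70 in ventral pools 4, 5, 6 and 7 and at 53.6, 45.3 and 21.7 in dorsal pools 4, 5 and 6. The log2 change was -0.88 (SE 0.76, adjusted p = 0.612), and without male ventral pool 7 it was -0.042. Over both sexes it was -0.29 (SE 0.52, adjusted p = 0.727), and 0.17 without that pool. The library of unsettled region had 49.6.

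Ptprb, the phosphatase that acts on TEK, was read at 44.0, 27.7 and 28.01 normalized CPM in female ventral pools 1, 2 and 3 and at 32.4, 20.9 and 26.5 in the dorsal ones. In males it was read at 31.8, 30.9, 19.8 and 3.64 in ventral pools 4, 5, 6 and 7 and at 42.2, 35.9 and 20.5 in dorsal pools 4, 5 and 6. The ventral level was 1.35, 1.32 and 1.06 times the dorsal level in the 3 female pools and 0.754, 0.861 and 0.964 times the dorsal level in male pools 4, 5 and 6. The log2 change was 0.30 in females (SE 0.24, adjusted p = 0.375) and -0.87 in males (SE 0.61, adjusted p = 0.527), or -0.22 without male ventral pool 7. Over both sexes it was -0.32 (SE 0.40, adjusted p = 0.596), or 0.040 without that pool. The male change minus the female change was -1.16 (SE 0.76, adjusted p = 0.503 by limma), and -0.52 without male ventral pool 7. With the mean of the epicardial list as a covariate it was -2.65 and was called (adjusted p = 0.0239). The library of unsettled region had 49.1, above every other library.

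Pear1, the receptor with EGF-like repeats, gave the smallest adjusted p among the members between regions in the females. It was read at 23.1, 30.9 and 18.7 normalized CPM in female ventral pools 1, 2 and 3 and at 10.3, 8.25 and 10.9 in the dorsal ones. The ventral level was 2.25, 3.75 and 1.73 times the dorsal one, with no overlap of the groups. The means were 24.3 ± 6.16 ventrally and 9.79 ± 1.37 dorsally (SD, n = 3 each), a log2 change of 1.21 (SE 0.25, adjusted p = 0.00677 by limma). This call held without any 1 library and was lost, as for every called gene examined, with the mean of the epicardial list as a covariate (1.21, adjusted p = 0.660).

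In males Pear1 was read at 24.99, 19.2, 29.9 and 18.5 normalized CPM in ventral pools 4, 5, 6 and 7 and at 21.4, 22.5 and 17.3 in dorsal pools 4, 5 and 6. All 7 male values lay above the 3 female dorsal values, and the male groups overlapped. This gave a log2 change of 0.15 (SE 0.23, adjusted p = 0.777), or 0.25 without male ventral pool 7. The male change minus the female change was -1.05 (SE 0.33, adjusted p = 0.119). Over both sexes the change was 0.65 (SE 0.21, adjusted p = 0.0445), with an adjusted p of 0.0617 with the replicate block and of 0.0262 to 0.539 over all alternatives. That call was lost without any 1 of the 3 female ventral or 3 female dorsal pools, male ventral pools 4 and 6 or male dorsal pool 6, with adjusted p up to 0.107. Between the sexes, averaged over the regions, Pear1 changed by 0.43 with an SE of 0.21 (adjusted p = 0.218). The library of unsettled region had 23.0.

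**Figure D4:**
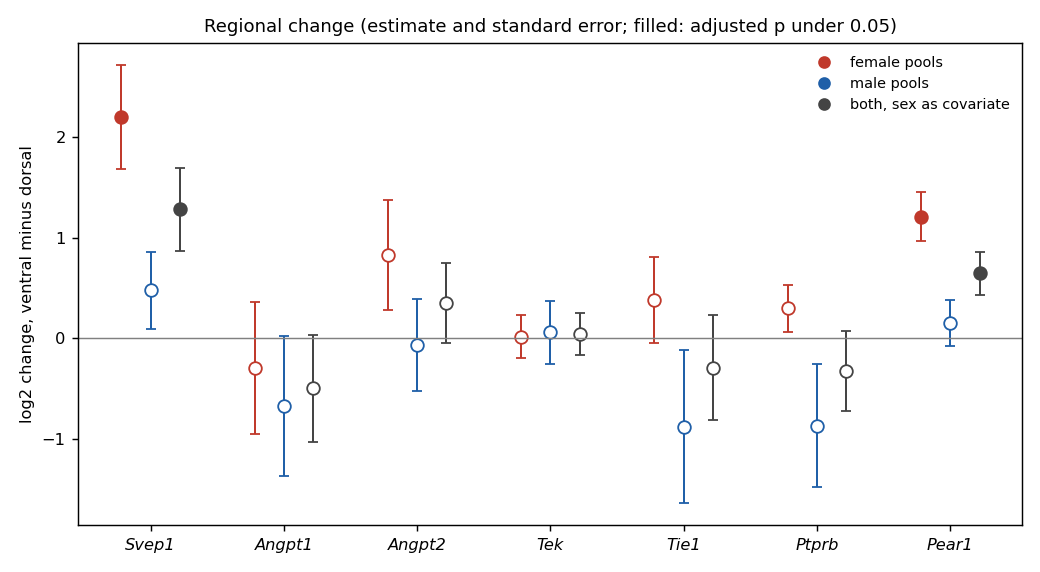
Log2 change (ventral minus dorsal) of each gene in the female pools, the male pools and both together, with standard errors (limma on log2 of normalized CPM plus 1; filled points have an adjusted p under 0.05). Svep1 and Pear1 are filled for the females and for both sexes together, and no male point is filled.

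Ratios were taken within a library, so that each member was set against another member or a marker list of the same RNA. None of 9 ratios passed the test between regions. The ratio of Pear1 to the mean of the blood endothelial list came nearest, with log2 values of -1.09 ± 0.24 in female ventral and -2.21 ± 0.35 in female dorsal pools (SD, n = 3 each). It was -0.46 ± 1.02 in male ventral (n = 4) and -1.29 ± 0.17 in male dorsal pools (n = 3). The regional difference averaged over the sexes was 0.98 (p = 0.0129 by the exact permutation test, two-sided, adjusted p = 0.116). Male ventral pool 7, where the endothelial markers were lowest, had the highest value, 0.96. Without that pool the difference was 0.74 (adjusted p = 0.135 by the same test). Without male ventral pool 5 the adjusted p was 0.0450.

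The log2 ratios of Tie1 and Ptprb to the blood endothelial list differed between regions by 0.048 and 0.013, averaged over the sexes (exact permutation test, adjusted p = 0.947 for both), and by 0.18 and 0.053 without male ventral pool 7. The ratio of Tek to this list differed by 0.33 (adjusted p = 0.947), and by 0.012 without that pool. It had its widest range in the male ventral pools. Its mean was 0.25 ± 0.62 in female ventral and 0.31 ± 0.53 in female dorsal pools (SD, n = 3 each). It was 0.92 ± 0.59 in male dorsal pools (n = 3) and ran from 0.20 to 3.58 in the 4 male ventral pools, with pool 7 the highest. The log2 ratio of Tie1 to Tek ran from -5.02 in male ventral pool 7 to -0.37 among the male ventral pools.

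Levels were compared between genes per kb of exon, averaged over the 13 libraries of settled region. Tek stood highest with 17.98 ± 6.89 normalized CPM per kb (SD, n = 13), and it was the highest of the 7 members in 12 of 13 libraries. Tie1 followed with 6.89 ± 3.37, Angpt1 with 3.43 ± 2.82, Pear1 with 2.90 ± 1.03, Angpt2 with 2.87 ± 1.64, Ptprb with 2.10 ± 0.79 and Svep1 with 1.41 ± 0.90. Of neighbours in this order, only Tek and Tie1 had a mean log2 difference within a library (1.58) larger than its SD between libraries (1.46). From Tie1 down to Svep1, no neighbours differed beyond that spread, and Angpt1 was above Pear1 in 6 of 13 libraries. Svep1 was the lowest member in 7 of 13 libraries, Angpt1 and Ptprb in 3 each.

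The genes whose levels followed each member most closely over the 13 libraries were listed by Pearson's r of log2 values among 11345 genes with a mean of at least 5. These libraries share pool numbers, depth and tissue make-up, and the r values are a description. Svep1 was followed by Gm9973 (r = 0.964), Myrf (0.964) and Gm20186 (0.958). Tek was followed by Ghr (0.975), the growth hormone receptor, by Ext2 (0.946), an enzyme of heparan sulphate synthesis, and by Sec61a1 (0.940), a subunit of the protein channel of the endoplasmic reticulum. Pear1 was followed by Lamb2 (0.954), a laminin chain, Ddrgk1 (0.932) and Ltbp4 (0.931), a binding protein of latent TGF-beta.

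Tie1 was followed by Robo4 (0.954), a receptor of blood endothelium, by Sh2d3c (0.926) and by Ptprb (0.925). Ptprb was followed by Ldb2 (0.955), Tie1 (0.925) and Trdn (0.922), the last of which encodes triadin of the calcium release complex of muscle. These values fell without male ventral pool 7, to 0.834 for Tie1 and Robo4, 0.711 for Tie1 and Ptprb and 0.707 for Ptprb and Trdn. Tek was not among the genes close to Tie1 (r = -0.36, or -0.18 without that pool) or to Ptprb (r = -0.43, or -0.34 without it). The angiopoietins had weaker neighbours, which were Zfp992 (0.852), Cthrc1 (0.851) and Zfp37 (0.850) for Angpt1 and Cbfa2t3 (0.896), Usf3 (0.830) and Gm42715 (0.797) for Angpt2. Svep1 and Pear1 had an r of 0.709, and of 0.735 without male ventral pool 7.

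Other genes of the pathway were read from lists in the female regional comparison. Of 12 Tie signalling genes tested, 2 were higher ventrally and 1 dorsally, with a median log2 change of 0.21. Among all genes, 14.5% were higher ventrally and 13.3% dorsally, so the list lay close to that background. Pik3ca, the catalytic subunit of a kinase downstream of TEK, rose by 0.59 (SE 0.16, adjusted p = 0.0211) and Grb14, an adaptor that binds receptor kinases, fell by 1.01 (SE 0.24, adjusted p = 0.0149). The third was Foxo1, a transcription factor restrained by this pathway, which rose by 0.63 (SE 0.20, adjusted p = 0.0424) and was named after its value was seen. The call of Foxo1 was lost with the replicate block (adjusted p = 0.0544), with edgeR (adjusted p = 0.0512) and without any 1 library, with adjusted p up to 0.150. That of Pik3ca was lost without any 1 of female ventral pools 2 and 3 and female dorsal pools 1 and 2 (adjusted p up to 0.0685), and that of Grb14 without female ventral pool 2 (adjusted p = 0.0544). Both genes of the SVEP1-binding integrin missed the test, Itga9 with a log2 change of 0.88 (adjusted p = 0.0689) and Itgb1 with -0.41 (adjusted p = 0.0842). Itga9 passed it with the replicate block (adjusted p = 0.0314) and without female dorsal pool 1 (adjusted p = 0.00966).

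Among 5 angiopoietin-like genes, 1 was called, against 27.8% of all genes. This was Angptl2, with 107 ± 16.5 ventrally and 68.5 ± 7.97 dorsally (SD, n = 3 each) and a log2 change of 0.64 (SE 0.16, adjusted p = 0.0173). Its call was lost in 8 of 18 alternatives, among them eBayes without trend (adjusted p = 0.0523), GC content and length removed (adjusted p = 0.116) and leaving out female ventral pool 2 or 3 or female dorsal pool 2 or 3. Angptl7 had a log2 change of 1.88 and missed the test (adjusted p = 0.0823), but passed it with the replicate block (adjusted p = 0.0138), with the endothelial list as a covariate (adjusted p = 0.0258) and without female dorsal pool 1 (adjusted p = 0.0328). Among 4 tested relatives of Ptprb and Pear1, 2 rose, against 14.5% of all genes that were higher ventrally. Megf6, which carries EGF-like repeats as Pear1 does, was read at 156 ± 48.1 ventrally and 27.2 ± 14.6 dorsally (log2 change 2.56, SE 0.37, adjusted p = 0.00159). Ptprj, a phosphatase of the same class as Ptprb, had a log2 change of 1.54 (SE 0.44, adjusted p = 0.0276). The call of Ptprj was lost in 7 of 17 alternatives, which included quantile normalization (adjusted p = 0.0608) and leaving out any 1 female library but ventral pool 1 (adjusted p up to 0.0699).

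Markers of several other cell types moved with region in the same female pools, and their part in the changes of Svep1 and Pear1 was not tested. The shares below stand against 14.5% of all genes higher ventrally. Of the fibroblast list 5 of 8 genes rose ventrally, with Col1a1 up by 2.46 and Dcn by 1.89 on the log2 scale. Of the macrophage list 5 of 6 rose (Csf1r by 1.90 and C1qa by 2.08), and of the lymphatic endothelial list 3 of 6 rose (Lyve1 by 3.34 and Flt4 by 1.14). Of the mural list 3 of 6 rose, Cspg4 by 1.18 among them, while Rgs5 fell by 1.05. The blood endothelial list had 0 of 10 genes called, with Pecam1 at -0.50 (adjusted p = 0.196) and Egfl7 at 0.43 (adjusted p = 0.272). Without female ventral pool 3, Egfl7 was called (0.81, adjusted p = 0.0112). The call of Flt4 was lost in 8 of 18 alternatives, 4 of them with 1 library left out (female ventral pool 1 or 2, female dorsal pool 2 or 3), and with GC content and length removed those of Cspg4 (0.61, adjusted p = 0.0699) and Ttn (0.29, adjusted p = 0.258) were lost too. In the cardiomyocyte list 1 of 8 genes rose (Ttn, by 1.40), with Actn2 at -0.40. In the megakaryocyte and platelet list 1 of 6 rose, Pf4 by 2.15, whereas Ppbp was at -0.51 (adjusted p = 0.419).

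The summed levels of these lists in the female pools show how far the regions were apart. The fibroblast list summed to 11545 to 22103 normalized CPM ventrally and 2904 to 4547 dorsally, and the macrophage list to 206 to 416 and 66.9 to 122. The lymphatic list summed to 238 to 1896 ventrally and 102 to 290 dorsally, so that these groups overlapped. The megakaryocyte and platelet list summed to 74.2 to 169 ventrally and 26.9 to 64.7 dorsally. Pf4 made up much of that sum, with means of 114 ventrally and 28.5 dorsally. Only 2 of the 6 listed genes had a change above 0, and the median log2 change of the list was -0.29. The mural list summed to 280 to 331 ventrally and 298 to 553 dorsally, and the cardiomyocyte list to 19376 to 27949 and 23043 to 33293. In the males, where no gene of any list was called, the fibroblast list summed to 10925 to 25417 ventrally and 7251 to 12566 dorsally.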

How the data were processed

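Single reads of 60 bases from poly(A) RNA of 14 pools were trimmed with Cutadapt, quantified with RSEM against GRCm38 and normalized with limma by the authors, who filtered out genes that did not reach 1 CPM in 3 or more libraries; the submitters' processing notes give RSEM 1.3.1, and the paper's methods name another version. Whether strand was used is not stated. The deposited signal is a normalized CPM, and whole reads were recovered for 100.0% of its values (tolerance 0.02 reads, offset 0.5 reads). Members and gene lists were chosen with earlier results of these data known. Lists name, beside all members, the 2 genes of smallest adjusted p, and each member its 3 most similar genes.

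The log2 of each value plus 1 was fitted with limma 3.58.1 in R 4.3.3 (lmFit, eBayes with trend) over genes that reached 1 in 3 or more libraries of a fit, Benjamini-Hochberg adjusted over all genes and called under 0.05. Fold changes are on that scale, which understates changes of low genes. Libraries of a pool number deviated together (correlations 0.187, 0.169 and 0.270 in females, 0.427, 0.175 and 0.351 in males), so the numbers were taken to pair the libraries in fits with a replicate block. What a number marks is not given in the sources used here, and the main fits did not use it. P-values measure the spread between libraries. Libraries that share a pool number entered the main fits as separate ones. For the comparison of the sexes, only the averaging of pools took the pool as the unit. Also tried were 0.1 as the pseudocount, fits of all genes, genes with a mean of 10 or more, median-of-ratios and quantile scaling, eBayes without trend, edgeR 4.0.16 on the recovered counts, splines (5 degrees of freedom) on GC content and length, marker-list covariates, the block, averaging of pools, the unsettled library as dorsal or ventral, and each library left out. The regional fits were also run on simulated counts, drawn with the same dispersion for all genes and no effect shared by pool number. Those settings differ from these libraries, so that run does not show how the fits perform on them. Angpt4, Grb7, Ptprh and Megf11 of the lists are not analysed here. Exon lengths, positions and GC content came from GENCODE M21; figures used matplotlib 3.10.9 in Python 3.11.15.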

Additional observations from a re-analysis of the deposited data

Results flagged for a closer look

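Angpt1 in male ventral pool 5 was read at 42.9 normalized CPM, far from the 4.66 to 6.28 of the other 3 male ventral pools, with a gap of 0.958 of the group's range, past the limit of Dixon's test for 4 values. The dorsal library of the same pool was the highest male dorsal one, with 33.9. Of the groups, only the male ventral one was large enough to be examined, with 16 values and ratios, and chance marks about 1 in 20 groups.

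For Ptprb the regional change in males minus that in females was -1.16 on the log2 scale. It stood out because the ventral level was above the dorsal one in 3 of 3 female pools and below it in 3 of 3 male pools with both regions. The levels were nearly equal in pool 3 (1.06 times) and pool 6 (0.964 times), and the share of all genes with such a split is not given here. The difference was tested and missed the threshold (adjusted p = 0.503 by limma), and without male ventral pool 7 it was -0.52. The part of male ventral pool 7 was not tested beyond leaving it out.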

How the results depend on the processing

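Depth was no limit, since every member had at least 50 reads in each library. Each library of a fit was left out in turn (6 in females, 7 in males and 13 in the others). The number of members called was then 1 to 2 between regions in females, 0 to 2 over both sexes and 0 to 1 between the sexes. It was 0 in males and for the region by sex comparison, and of the ratios 0 to 1 were called. With the mean of the epicardial list as a covariate 0 members were called in females, over both sexes and between the sexes, and 1 (Ptprb) by region and sex. Over both sexes 0 were called after quantile normalization, with eBayes without trend, with GC content and length removed, and with that removal and the replicate block; 1 was called with edgeR, with the endothelial list as a covariate, with the block, and with the unsettled library taken as dorsal or as ventral. Between the sexes 0 were called with eBayes without trend, with the endothelial covariate and with averaged pools. The replicate block added the calls of Svep1 by region and sex (1 call, also with GC content and length removed) and of Itga9 and Angptl7 in females, and ended those of Pear1 over both sexes and Foxo1 in females. It changed no other call of a member or a leading gene of a list. For the ratios the block was a test of signs swapped within the pools that had both regions. With so few pools it could hardly call a ratio after adjustment, and it called none. The causes were not tested.

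Among called changes, those of Svep1 (in females and over both sexes) and of Pf4 turned, in each case with the epicardial covariate, whose values did not overlap between the female regions. The other changes that turned had missed the test. With the epicardial covariate the log2 change between regions was -1.37 for Svep1, 3.91 for Angpt1 and -0.069 for Pf4 in females. In males it was then -0.025 for Svep1, 0.44 for Angpt2, -0.24 for Tek and 0.032 for Tie1, and over both sexes -0.11 for Svep1, 0.47 for Tie1 and 0.28 for Ptprb. With the endothelial covariate it was 0.45 for Angpt2, -0.062 for Tek and 0.14 for Tie1 in males, and 0.21 for Tie1 and 0.036 for Ptprb over both sexes. With the replicate block it was 0.34 for Angpt2 and -0.017 for Tek in males (0.35 and -0.025 with GC content and length removed) and 0.17 for Tie1 and 0.040 for Ptprb over both sexes. With edgeR it was -0.035 for Tek in females, 0.098 for Angpt2 in males and 0.016 for Tie1 over both sexes. It was -0.0063 for Tek in females after median-of-ratios scaling, -0.030 for Pear1 in males with GC content and length removed, and -0.076 for Tek in males with the unsettled library as dorsal. The ratio of Svep1 to the epicardial list was 0.012 with a pseudocount of 0.1. That of Ptprb to the endothelial list was -0.048 after quantile normalization, -0.077 with GC content and length removed and -0.049 with the unsettled library as dorsal, and that of Tie1 was -0.063 with GC content and length removed. With the block the ratios to Tek were 0.17 for Tie1 and 0.040 for Ptprb.

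Leaving out 1 library, the log2 change ran from -1.03 to 0.40 for Angpt1 and from -0.16 to 0.23 for Tek in females, from -0.34 to 0.34 for Angpt2 and from -0.15 to 0.35 for Tek in males, and from -0.51 to 0.17 for Tie1 and from -0.47 to 0.040 for Ptprb over both sexes. The ratios ran from -0.61 to 0.17 for Tie1 to Tek, from -0.62 to 0.040 for Ptprb to Tek, from -0.16 to 0.11 for Svep1 to the epicardial list, and from -0.10 to 0.23 for Tie1 and from -0.11 to 0.14 for Ptprb to the endothelial list.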
